A study of Mus musculus and Homo sapiens
Mus musculus with 14 samples.

Results

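Calsyntenins, neurexins and neuroligins are families of adhesion proteins found at synapses. The 8 genes described here, Clstn1, Clstn2, Clstn3, Nrxn2, Nrxn3, Nlgn1, Nlgn2 and Nlgn3, were taken by symbol from the 25357 genes listed in either of the retina count tables, and all 8 were listed in both. They were chosen because Clstn2 was already known to be higher in TH+ amacrine cells in these same libraries, so their values in the TH+ and TH- libraries are given as a description, without a test of the difference between TH+ and TH- cells. The comparisons of the retinal layers were not used in the choice and were tested.

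Neurexins sit mainly in the presynaptic membrane and reach across the synaptic cleft to many ligands, of which the neuroligins in the postsynaptic membrane are the best known. Among the neuroligins, Nlgn1 is a protein of excitatory synapses, Nlgn2 of inhibitory synapses, and Nlgn3 occurs at both. Calsyntenins are single-pass membrane proteins with cadherin repeats; Clstn1 also links the kinesin motor to its cargo in axons, and Clstn2 and Clstn3 have been linked to the formation of inhibitory and excitatory synapses. In the retina the synapses of these proteins lie in the plexiform layers, while most of the RNA of a cell is in its body.

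The RNA was measured by Light-Seq, in which light attaches DNA barcodes to the cDNA inside chosen areas of a fixed tissue section, so that several cell populations of a section are sequenced apart as unique molecular identifiers (UMIs, one per original cDNA molecule). All retinas were wild type, from CD1 IGS mice in the third postnatal week. In 4 sections the outer nuclear layer (ONL, photoreceptor cell bodies), the bipolar cell layer (BCL) and the ganglion cell layer (GCL) were barcoded. In 5 further sections a handful of TH+ amacrine cells, the dopaminergic amacrine cells picked out by antibody staining for tyrosine hydroxylase, and TH- amacrine cells of the same section were barcoded. No group carried a transgene or a treatment. The replicates are sections, the study's methods speak of a single source animal, and p-values therefore measure the spread between sections, which may be technical.

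The libraries held 310228 to 801105 UMIs in the ONL, 193869 to 208437 in the BCL, 585655 to 785013 in the GCL, 30317 to 87449 in TH+ cells and 134394 to 200344 in TH- cells. Levels are UMIs per 1000000 UMIs of the library (CPM). A count of 0 allows up to 3 UMIs, which is 34.3 to 99.0 CPM in the TH+ libraries and 3.74 to 15.5 CPM in the layer libraries. Marker genes followed the labels. The summed CPM of Th, Slc18a2, Ddc and Cartpt was 2098 to 4321 in TH+ libraries and 131 to 265 in TH- libraries, 6 ganglion cell markers summed to 4014 to 4463 in the GCL and at most 471 in the ONL, and 5 rod markers summed to 50203 to 63302 in the ONL. Markers of other cells were also present. The BCL held 6057 to 6659 CPM of 4 Müller glia markers beside 5818 to 6530 CPM of 5 bipolar markers. Rod markers reached 10590 to 18430 CPM in the BCL and 3991 to 6941 CPM in the GCL. They reached 12968 to 33647 CPM in TH+ and 7429 to 19776 CPM in TH- libraries. In such areas, fewer cells of a type and less RNA per cell cannot be told apart.

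The genes lie on 8 chromosomes and differ greatly in size (coordinates of GRCm39). Clstn1 spans chr4:149670700-149733654 on the plus strand, Clstn2 chr9:97326448-97915305 on the minus strand and Clstn3 chr6:124407540-124441755 on the minus strand. Nrxn2 spans chr19:6468761-6594199 and Nrxn3 chr12:88689646-90301709, both on the plus strand. Nlgn1 spans chr3:25480379-26386609 and Nlgn2 chr11:69713948-69728613, both on the minus strand, and Nlgn3 spans chrX:100342750-100369570 on the plus strand. Nrxn3, at 1612 kb, was the longest and Nlgn2, at 14.7 kb, the shortest. UMIs were counted over exons, so intron length did not enter the counts. Of the exon bases of Nlgn3, 41.1% are shared with the long noncoding RNA Gm21986, so its counts are uncertain. Gm21986 itself had 4 UMIs over the 12 layer libraries, against 300 for Nlgn3. Clstn1 shares 21.4% of its exon bases with Pik3cd on the opposite strand, which had 67 UMIs against 7990 for Clstn1. The counting ignored strand and by default left out reads that overlap several genes, so reads of such shared bases could be lost, which would lower the counts, the levels per kilobase and the family shares of these genes.

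The promoters of the 3 calsyntenins are shown because the distributions of these paralogs over the cell populations differed, as described after them. Each is 250 bases before to 50 bases after a RefSeq transcription start, 5′ to 3′ on the strand of the gene, in GRCm38.p6. Capitals mark TGACGTCA, the full cAMP response element (CRE), which reads the same on both strands and was singled out after the sequences had been seen. The search also took in the CRX/OTX core, homeodomain core, GC box, E-box and TATA box, which are not marked.

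Clstn2 promoter, chr9:98033118-98033417, minus strand: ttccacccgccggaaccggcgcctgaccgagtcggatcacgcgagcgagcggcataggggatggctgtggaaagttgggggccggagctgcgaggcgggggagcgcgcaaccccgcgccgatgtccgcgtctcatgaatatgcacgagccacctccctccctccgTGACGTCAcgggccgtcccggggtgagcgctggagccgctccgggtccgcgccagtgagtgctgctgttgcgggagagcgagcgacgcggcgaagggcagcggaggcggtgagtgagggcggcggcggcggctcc

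Clstn3 first promoter, chr6:124464735-124465034, minus strand: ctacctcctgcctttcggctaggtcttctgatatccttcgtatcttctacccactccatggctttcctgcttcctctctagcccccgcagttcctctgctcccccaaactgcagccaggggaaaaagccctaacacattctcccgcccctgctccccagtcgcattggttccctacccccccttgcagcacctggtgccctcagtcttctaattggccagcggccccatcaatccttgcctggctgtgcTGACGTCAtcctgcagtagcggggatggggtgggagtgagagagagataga

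Clstn1 promoter, chr4:149586218-149586517, plus strand: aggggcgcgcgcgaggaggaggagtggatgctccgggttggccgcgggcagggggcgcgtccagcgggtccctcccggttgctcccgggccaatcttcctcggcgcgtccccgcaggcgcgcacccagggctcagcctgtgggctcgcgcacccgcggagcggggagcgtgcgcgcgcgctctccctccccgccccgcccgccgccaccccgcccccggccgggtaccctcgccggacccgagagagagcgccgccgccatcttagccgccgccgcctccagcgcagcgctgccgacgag

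The element was found in the Clstn2 promoter, where its first base lies 85 bases before the start, and in the first of the 2 Clstn3 promoters, where it begins 1 base before the start. It was found in 1.79% of 32851 mouse promoters of this length, and neither in the Clstn1 promoter nor in the second Clstn3 promoter. RefSeq promoters were matched for 6 of the 8 genes, 10 promoters in all, and none of the neurexin and neuroligin promoters matched held it. G and C made up 79.7% of the Clstn1 promoter, 72.7% of the Clstn2 promoter and 58.3% of the first Clstn3 promoter, against a median of 52.7% over all promoters. A match of letters is a description of the sequence and not a measured binding site.

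Clstn2 was high in TH+ cells and in the GCL and low elsewhere. In the TH+ libraries of sections 1 to 5 Clstn2 stood at 123, 343, 306, 238 and 231 CPM, from 6, 30, 13, 11 and 7 UMIs. In the TH- libraries of the same sections it stood at 59, 29, 89, 65 and 35 CPM, from 9, 5, 12, 13 and 5 UMIs. The lowest TH+ library lay above the highest TH- library, and TH+ was higher in 5 of 5 sections, with a ratio within a section of 2.07 to 11.9 and a median of 3.67. The mean was 248 ± 84.4 CPM (s.d., n = 5) in TH+ and 55.5 ± 24.3 CPM (n = 5) in TH- cells, a log2 fold change of 2.20 ± 0.32 (standard error). These are the values that led to the choice of the genes. Clstn2 was the only one of the 8 genes whose TH+ and TH- libraries did not overlap, where 0.93% of the 6021 genes tested did not overlap with TH+ higher. In the edgeR fit 50 genes (0.83%) were called, 0.747% of those tested with TH+ higher and 0.083% with TH- higher. This balance moved with the setting. With the section as a block 148 were called, 96 with TH+ higher and 52 with TH- higher. With no filter on low counts 34 had TH+ higher and 32 had TH- higher.

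**Figure D1:**
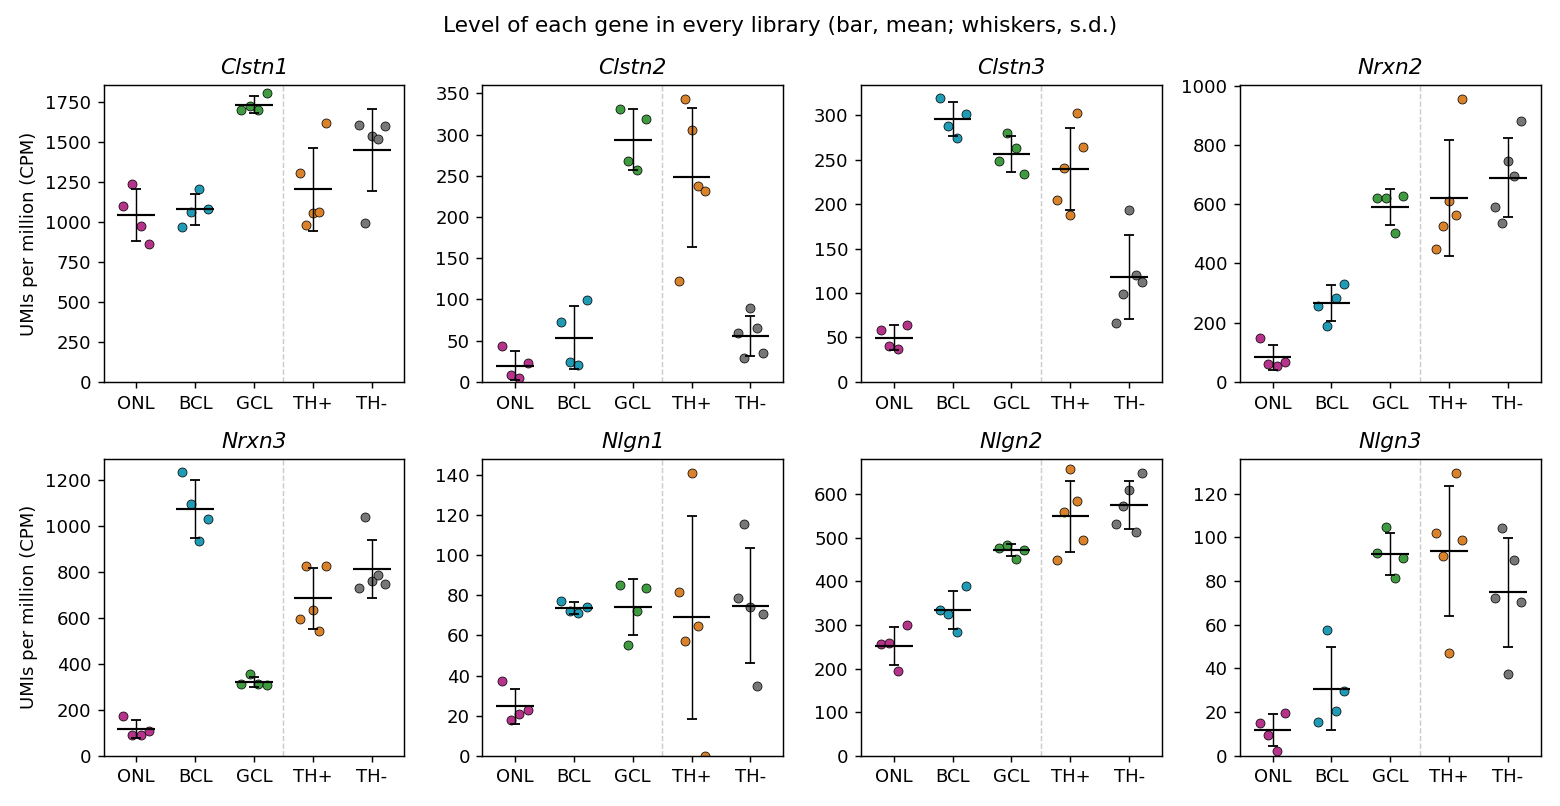
Level of each of the 8 genes in every library, in CPM (y axis, linear from 0), for the ONL, BCL and GCL (4 sections each) and TH+ and TH- amacrine cells (5 sections each); points are libraries in section order, the bar is the mean and the whiskers the s.d. Clstn2 sits near 248 CPM in TH+ cells and 294 CPM in the GCL and below 100 CPM in every other library. Nrxn3 has its highest mean in the BCL.

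Markers of other cell types were measured in the same libraries as Clstn2. Summed rod markers were higher in TH+ than in TH- libraries of each section. In the ONL, where those markers were highest, Clstn2 averaged 19.8 ± 17.7 CPM (n = 4). Summed ganglion cell markers were 469 to 865 CPM in TH+ and 376 to 763 CPM in TH- libraries, which overlap, against 4014 to 4463 CPM in the GCL. Within sections, this sum was higher in TH+ in sections 2, 3 and 4 and lower in sections 1 and 5. Summed Müller glia, bipolar and amacrine markers were each lower in TH+ than in TH- libraries in 5 of 5 sections, at 2205 to 3351 against 3202 to 5395 CPM, 462 to 1395 against 705 to 2366 CPM and 2376 to 3925 against 3088 to 5166 CPM. Between 4 and 6 of the 6 ganglion cell markers had UMIs in a given TH+ library. The part of these cell types in the TH+ values of Clstn2 was not tested.

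Across the layers Clstn2 was high in the GCL, where its counts were deepest, and low in the BCL and ONL. In the GCL it stood at 331, 268, 257 and 319 CPM in sections 1 to 4, from 167 to 260 UMIs. In the BCL it stood at 72, 24, 20 and 99 CPM, from 14, 5, 4 and 20 UMIs, and in the ONL at 44, 8, 5 and 23 CPM, from 35, 6, 2 and 7 UMIs. The GCL libraries lay above all BCL and ONL libraries, and the BCL and ONL overlapped. Beside its ganglion cell markers, the GCL also had the highest summed amacrine markers of the 3 layers (1327 to 1502 CPM, against 584 to 776 in the BCL and 235 to 434 in the ONL) and the highest summed astrocyte markers (132 to 197 CPM, against 20.6 to 54.4 and 5.53 to 33.7), and their part in the GCL levels of Clstn2 and the other members was not tested. With edgeR's quasi-likelihood test, Clstn2 was lower in the ONL than in the GCL (log2 fold change -3.57 ± 0.24, adjusted p = 2.1e-19) and lower in the BCL than in the GCL (-2.62 ± 0.26, adjusted p = 2.3e-12), in 4 of 4 sections each. The difference between ONL and BCL missed the threshold (-0.95 ± 0.41, adjusted p = 0.0659), although BCL was higher in 4 of 4 sections, and it passed when the section was entered as a block (-0.97 ± 0.36, adjusted p = 0.0264). The ONL library of section 1 decided much of the ONL value. Without it the ONL to GCL difference was -4.65, and the ONL to BCL difference -2.03 with an adjusted p of 0.000165. That library also had the highest summed ganglion cell markers of the ONL, 471 CPM against 206 to 438 in the others. The same held for its amacrine (434 against 235 to 380 CPM) and astrocyte markers (33.7 against 5.53 to 22.6 CPM). The part of these cell types in the Clstn2 count was not tested.

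Clstn3 had a different distribution. It was high in the BCL, where it stood at 320, 288, 274 and 302 CPM in sections 1 to 4, and in the GCL at 248, 280, 263 and 234 CPM. In the ONL it stood at 59, 40, 37 and 64 CPM. The ONL lay far below both other layers, whose ranges overlapped. Clstn3 was lower in the ONL than in the BCL (log2 fold change -2.24 ± 0.17, adjusted p = 3.5e-16, edgeR) and than in the GCL (-2.21 ± 0.15, adjusted p = 6.2e-19), whereas BCL and GCL could not be separated (0.04 ± 0.13, adjusted p = 0.859), although the CPM was higher in the BCL in 4 of 4 sections. In amacrine cells Clstn3 stood at 204, 240, 188, 303 and 264 CPM in TH+ libraries and at 66, 98, 193, 120 and 113 CPM in TH- libraries. TH+ was higher in 4 of 5 sections, with a log2 fold change of 1.02 ± 0.28, and the groups overlapped through section 3, where TH- (193 CPM) was slightly above TH+ (188 CPM). These counts were small, from 8 to 21 UMIs in TH+ and 10 to 26 UMIs in TH- libraries.

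Clstn1 was the most abundant member per kilobase in each population. Its GCL libraries held 1702, 1725, 1703 and 1810 CPM. The BCL held 970, 1060, 1204 and 1083 CPM, and the ONL 1102, 1237, 972 and 861 CPM. The GCL lay above both other layers, which overlapped. Clstn1 was lower in the ONL than in the GCL (log2 fold change -0.56 ± 0.11, adjusted p = 1.7e-05, edgeR) and lower in the BCL than in the GCL (-0.85 ± 0.12, adjusted p = 2.6e-08). Between ONL and BCL it passed narrowly in favour of the ONL (0.29 ± 0.12, adjusted p = 0.0469), but this call was not stable. It was lost with DESeq2 and with either other filter (adjusted p of 0.214, 0.0605 and 0.0503), and in 8 of the 16 fits that left out a section or library, with an adjusted p of up to 0.414 without section 2. On column totals the change was -0.04 ± 0.11 with an adjusted p of 0.840, mean levels were 1043 and 1079 CPM, and ONL was higher in 2 of 4 sections.

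In amacrine cells Clstn1 showed no such separation as Clstn2. It stood at 1307, 983, 1059, 1060 and 1616 CPM in TH+ libraries and at 1604, 995, 1540, 1517 and 1600 CPM in TH- libraries, a log2 fold change of -0.30 ± 0.17. The ranges overlapped, and TH- was higher in 4 of 5 sections.

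**Figure D2:**
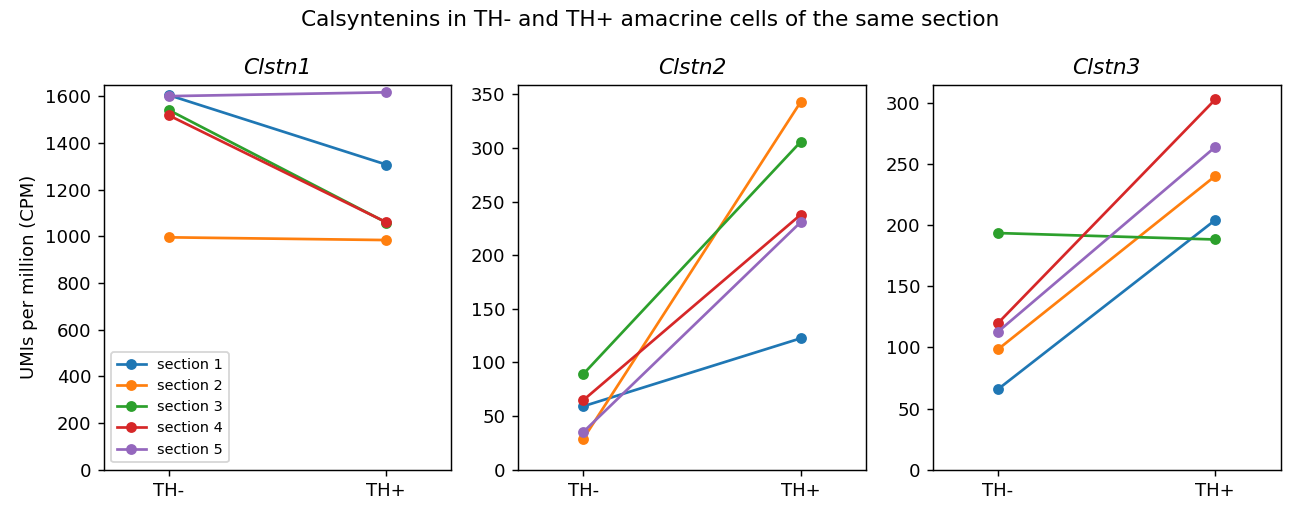
Levels of the 3 calsyntenins in CPM (y axes from 0, each with its own scale) in TH- and TH+ amacrine cells; each line joins the 2 libraries of 1 section. Clstn2 rises from TH- to TH+ in 5 of 5 sections, Clstn3 in 4 of 5, and Clstn1 is higher in TH- in 4 of 5.

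The make-up of the calsyntenin family is given as a description, since no test was made of the shares and the TH+ and TH- values led to the choice of the genes. Per kilobase of counted transcript, Clstn1 supplied 94.8 ± 2.37% (s.d.) of calsyntenin UMIs in the ONL, 79.4 ± 3.68% in the BCL, 79.6 ± 0.85% in the GCL, 74.9 ± 6.58% in TH+ and 91.2 ± 2.67% in TH- cells. The Clstn2 share was 11.0 ± 1.23% in the GCL and 13.1 ± 5.34% in TH+ cells, and 1.48 ± 1.26%, 3.26 ± 2.28% and 2.80 ± 0.95% in the ONL, BCL and TH- cells. The Clstn3 share was largest in the BCL, at 17.4 ± 1.91%.

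**Figure D3:**
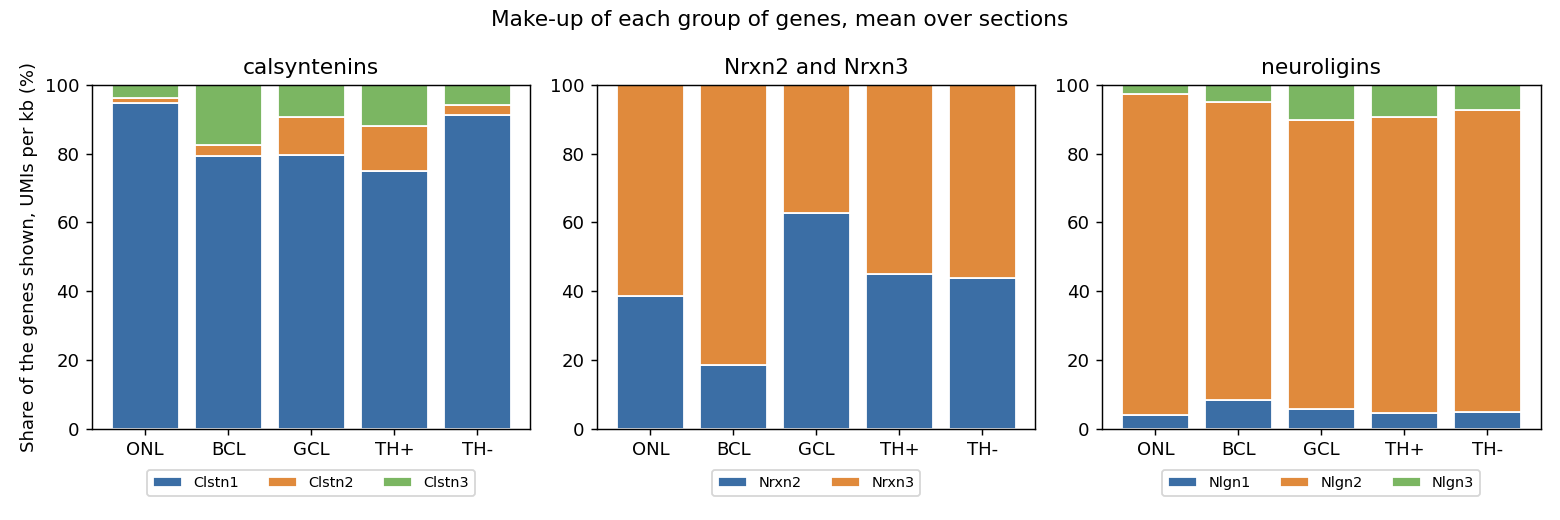
Share of each gene in the summed UMIs per kilobase of the genes in its panel (y axis, percent, mean over 4 sections for ONL, BCL and GCL and over 5 for TH+ and TH-). Clstn1 makes up 74.9 to 94.8% of calsyntenins and Nrxn3 81.4% of the sum of Nrxn2 and Nrxn3 in the BCL. Nlgn2 makes up 84.0 to 93.5% of the sum of Nlgn1, Nlgn2 and Nlgn3.

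The neurexins, the presynaptic side of the pair, had different distributions in the inner retina. Nrxn3 stood at 1233, 1094, 935 and 1028 CPM in the BCL of sections 1 to 4. It stood at 310, 355, 310 and 309 CPM in the GCL and at 174, 91, 89 and 106 CPM in the ONL. The ranges of the layers did not overlap. Nrxn3 was the one member called higher in the BCL than in the GCL (log2 fold change 1.57 ± 0.13, adjusted p = 2.8e-15, edgeR), and it was lower in the ONL than in the BCL (-2.83 ± 0.15, adjusted p = 1.3e-22) and the GCL (-1.26 ± 0.15, adjusted p = 1.1e-10). Summed bipolar, Müller glia and horizontal cell markers were all highest in the BCL of the 3 layers (the last at 262 to 427 CPM), and which of these cells carried Nrxn3 was not tested.

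Nrxn2 ran the other way between these layers. It stood at 619, 620, 501 and 627 CPM in the GCL, at 258, 187, 285 and 331 CPM in the BCL and at 147, 61, 55 and 68 CPM in the ONL. The ranges of the layers were again separate, with the GCL highest. Nrxn2 was lower in the BCL than in the GCL (log2 fold change -1.33 ± 0.17, adjusted p = 2.3e-09, edgeR), lower in the ONL than in the GCL (-2.57 ± 0.17, adjusted p = 8.2e-20) and lower in the ONL than in the BCL (-1.24 ± 0.21, adjusted p = 2.4e-06).

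Of the summed Nrxn2 and Nrxn3 UMIs per kilobase, Nrxn3 supplied 81.4 ± 4.46% in the BCL, 61.3 ± 3.49% in the ONL and 37.2 ± 2.57% in the GCL, where Nrxn2 supplied the larger part. The Nrxn3 share was 54.9 ± 5.95% in TH+ and 56.2 ± 7.32% in TH- cells, and these ranges overlapped. Nrxn2 stood at 449, 526, 612, 562 and 957 CPM in TH+ libraries and at 592, 538, 744, 694 and 881 CPM in TH- libraries. Nrxn3 stood at 592, 823, 635, 541 and 825 CPM in TH+ and at 730, 1036, 759, 784 and 747 CPM in TH- libraries. Both overlapped between the cell groups, with log2 fold changes of -0.21 ± 0.19 for Nrxn2 and -0.25 ± 0.17 for Nrxn3.

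Nlgn2, the neuroligin of inhibitory synapses, made up most of the summed Nlgn1, Nlgn2 and Nlgn3 UMIs per kilobase everywhere. It supplied 84.0 ± 0.60% of them in the GCL and 93.5 ± 1.90% in the ONL, the lowest and highest mean shares. It stood at 476, 484, 452 and 473 CPM in the GCL, at 335, 326, 285 and 391 CPM in the BCL and at 256, 259, 194 and 300 CPM in the ONL. The GCL was above both other layers, and the BCL and ONL overlapped. Nlgn2 was lower in the ONL than in the GCL (log2 fold change -0.75 ± 0.11, adjusted p = 1.2e-07, edgeR) and lower in the BCL than in the GCL (-0.66 ± 0.13, adjusted p = 2.8e-05). ONL and BCL were not separated (-0.08 ± 0.14, adjusted p = 0.697), but on column totals the BCL was higher (-0.41 ± 0.14, adjusted p = 0.0135). In amacrine cells it stood at 449, 560, 659, 584 and 495 CPM in TH+ and at 533, 573, 610, 514 and 648 CPM in TH- libraries, which overlapped (-0.06 ± 0.18).

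Nlgn3 and Nlgn1 were the rarest members per kilobase in each of the 5 populations. Nlgn3 stood at 93, 105, 81 and 90 CPM in the GCL, at 15, 58, 20 and 30 CPM in the BCL and at 15, 10, 2 and 19 CPM in the ONL. Only the GCL stood apart. Nlgn3 was lower in the ONL than in the GCL (log2 fold change -2.82 ± 0.27, adjusted p = 1.3e-13, edgeR) and lower in the BCL than in the GCL (-1.73 ± 0.29, adjusted p = 2.0e-06). Between ONL and BCL it passed narrowly (-1.09 ± 0.44, adjusted p = 0.0428), from 3 to 12 UMIs in each BCL library, and the adjusted p was 0.436 without the BCL library of section 2.

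Nlgn1, the neuroligin of excitatory synapses, stood at 85, 55, 72 and 84 CPM in the GCL, at 77, 72, 71 and 74 CPM in the BCL and at 37, 18, 21 and 23 CPM in the ONL. The ONL was below both other layers, and the BCL values lay inside the range of the GCL. Nlgn1 was lower in the ONL than in the BCL (log2 fold change -1.17 ± 0.28, adjusted p = 0.000718, edgeR) and the GCL (-1.35 ± 0.22, adjusted p = 5.1e-07), and the BCL and GCL were not separated (-0.18 ± 0.23, adjusted p = 0.591).

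Neither of these neuroligins separated the amacrine groups. Nlgn3 stood at 102, 91, 47, 130 and 99 CPM in TH+ and at 72, 104, 37, 90 and 70 CPM in TH- libraries (log2 fold change 0.29 ± 0.37). Nlgn1 stood at 82, 57, 141, 65 and 0 CPM in TH+ and at 79, 116, 74, 35 and 70 CPM in TH- libraries (-0.07 ± 0.43). The 0 in section 5 allows up to 99.0 CPM in that library and so does not set it apart from most TH- libraries.

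Counted over the 3 layer comparisons, the members were mostly lowest in the ONL and highest in the GCL. Between ONL and GCL, 8 of 8 genes passed, all higher in the GCL, where 61.5% of the 11324 genes tested passed and 32.2% were higher in the GCL. The median log2 fold change was -1.78 for the members and 0.00 for all genes tested. Between BCL and GCL, 6 of 8 passed, of which Nrxn3 was higher in the BCL and 5 were higher in the GCL, where 36.5% of all genes passed (16.1% higher in the BCL and 20.4% higher in the GCL). The medians were -0.76 and -0.02. Between ONL and BCL, 6 of 8 passed, with Clstn1 higher in the ONL and the other 5 genes higher in the BCL, where 36.7% of all genes passed (18.5% with the ONL higher, 18.2% with the BCL higher). The medians were -1.13 and 0.09.

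The scaling sets where the balance of these comparisons lies. With scaling factors from the trimmed mean of M-values (TMM), 50.5% of the genes called between ONL and BCL were higher in the ONL, and on column totals 29.5% were, with the median of all genes moved by -0.33. Between BCL and GCL, 44.1% of called genes were higher in the BCL with TMM and 55.5% on column totals, with the median moved by 0.17. Between ONL and GCL the median moved by -0.17. Of the 24 directions of members across the 3 comparisons, only that of Clstn1 between ONL and BCL turned with this scaling.

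**Figure D4:**
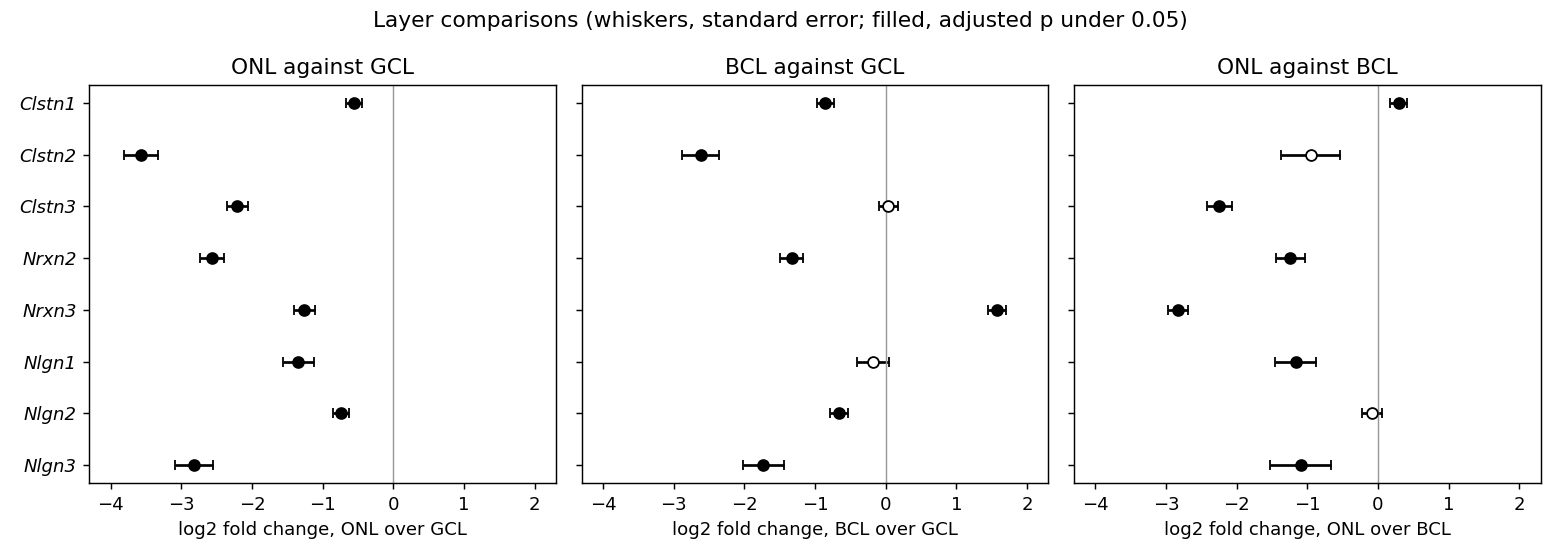
Log2 fold changes of the 8 genes between layers (x axes, first named layer over second; points are edgeR estimates from 4 sections a layer, whiskers the standard error, filled points have an adjusted p under 0.05). All 8 genes lie left of 0 for ONL over GCL, and Nrxn3 alone is called to the right for BCL over GCL, at 1.57.

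Ordered by level, the populations differed from gene to gene (the layer and amacrine tables come from separate experiments, and no test was made across them). By mean level, Clstn1 and Clstn2 were highest in the GCL and Clstn3 and Nrxn3 in the BCL. Nrxn2, Nlgn1 and Nlgn2 were highest in TH- cells and Nlgn3 in TH+ cells. For each gene but Clstn1, the libraries of the highest population overlapped those of the next. Nlgn3 averaged 93.9 CPM in TH+ cells and 92.5 CPM in the GCL. For Clstn2 the order was GCL, TH+, TH-, BCL and ONL, and the one gap without overlap lay between TH+ and TH-. For Nrxn3 it was BCL, TH-, TH+, GCL and ONL, with gaps between TH+ and GCL and between GCL and ONL. For Nlgn1 each neighbouring pair of populations overlapped.

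Per kilobase, Clstn1 was first of the 8 in each population, from 224 CPM per kb in the ONL to 372 in the GCL. Nlgn2 was second in 4 populations, with 81.5 CPM per kb in the GCL and 99.5 in TH- cells, and Nrxn3 was second in the BCL with 84.6. Clstn2 ranked 3 in the GCL with 51.6 CPM per kb, and 6 in the ONL with 3.48.

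The 3T3 mouse fibroblasts of the mixed culture in the series, which shared their wells with human HEK cells, gave a non-neuronal level. The paper found that a small part of the reads of each species carried the barcode of the other. The part of human reads in the 3T3 values was not tested. Over 3 wells with 540880 UMIs in all, Clstn1 had 156 UMIs (287 ± 25.5 CPM, n = 3), Nlgn2 had 43 UMIs (82.5 ± 37.9 CPM) and Nrxn2 had 1 UMI. The other 5 genes had none, which allows up to 5.55 CPM over the wells. Clstn1 and Nlgn2, among the members the most abundant calsyntenin and neuroligin per kilobase in the retina, alone had more than 1 UMI in the fibroblasts.

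A list of 45 partner genes (neurexin ligands, neuroligin regulators and scaffolds, presynaptic adaptors, kinesin and amyloid precursor protein, and shedding proteases) was read from the same fits. Cbln1, Nxph2, Lin7b and Psenen were too low to test, and 41 were tested in the layers. Between ONL and GCL, 33 of 41 passed, 29 of them higher in the GCL, with a median log2 fold change of -1.74. Between BCL and GCL, 24 passed, 18 of them higher in the GCL (median -0.58), and between ONL and BCL, 28 passed, 24 of them higher in the BCL (median -0.80). The shares of all genes that passed are those given for the members.

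By role, the kinesin and amyloid precursor group was the most one-sided, with 5 of 5 genes higher in the GCL than in the ONL and 5 of 5 higher than in the BCL. Kif5a, a neuronal kinesin heavy chain, was lower in the ONL than in the GCL (log2 fold change -3.20 ± 0.14, adjusted p = 3.8e-26, edgeR), as was App, the amyloid precursor protein (-2.61 ± 0.14, adjusted p = 5.2e-23).

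Of the 13 neurexin ligands tested, 10 were higher in the GCL than in the ONL, 1 was higher in the ONL and 2 did not pass. Adgrl1, the adhesion receptor latrophilin 1, was lower in the ONL (log2 fold change -2.25 ± 0.13, adjusted p = 1.5e-21, edgeR), and so was Lrrtm3, a postsynaptic leucine-rich repeat protein (-2.90 ± 0.40, adjusted p = 8.5e-09). The exception was C1ql3, a secreted C1q-like protein (2.39 ± 0.34, adjusted p = 1.8e-08), named after its value was seen. C1ql3 averaged 7.22 CPM in the GCL from 20 UMIs, and Lrrtm3 3.86 CPM in the ONL from 9 UMIs. Between BCL and GCL, 2 ligands were higher in the BCL, Nxph1 (2.35 ± 0.44, adjusted p = 1.5e-05) and Lrrtm4 (2.73 ± 0.49, adjusted p = 7.7e-06), likewise named afterwards, and 5 were higher in the GCL. Nxph1 and Lrrtm4 averaged 6.17 and 4.54 CPM in the GCL, from 17 and 12 UMIs. A count of 0 allows 3.82 to 5.12 CPM there.

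Of the 13 neuroligin regulators and postsynaptic scaffolds, 9 were higher in the GCL than in the ONL and 2 in the ONL, Dlg1 and Dlg4 (0.96 ± 0.18 and 1.13 ± 0.10), both named after their values were seen. Dlg4, which encodes the scaffold PSD-95, thus had the opposite direction to Shank1 (-1.97 ± 0.13, adjusted p = 4.1e-19, edgeR) and Dlg2 (-1.74 ± 0.12, adjusted p = 2.1e-18), also scaffold proteins. Of the 5 presynaptic adaptors tested, 4 were higher in the GCL than in the ONL. Apba1 and Apba2, the Mint proteins, gave -2.70 ± 0.13 (adjusted p = 5.0e-25) and -2.89 ± 0.18 (adjusted p = 1.3e-20), and Lin7c, named after its value was seen, was higher in the ONL (1.64 ± 0.18, adjusted p = 8.1e-12).

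The shedding proteases, enzymes that cut membrane proteins such as these, were seldom called. Only 1 of 5 passed between ONL and GCL, Psen2, a catalytic subunit of gamma-secretase (-1.01 ± 0.36, adjusted p = 0.0119, edgeR). Only Adam17, a membrane sheddase, passed between BCL and GCL, where it was higher in the BCL (1.62 ± 0.47, adjusted p = 0.00498). Both were low, at 6.66 to 23.8 CPM on average in the layers. Between ONL and BCL none of the 5 passed.

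**Figure D5:**
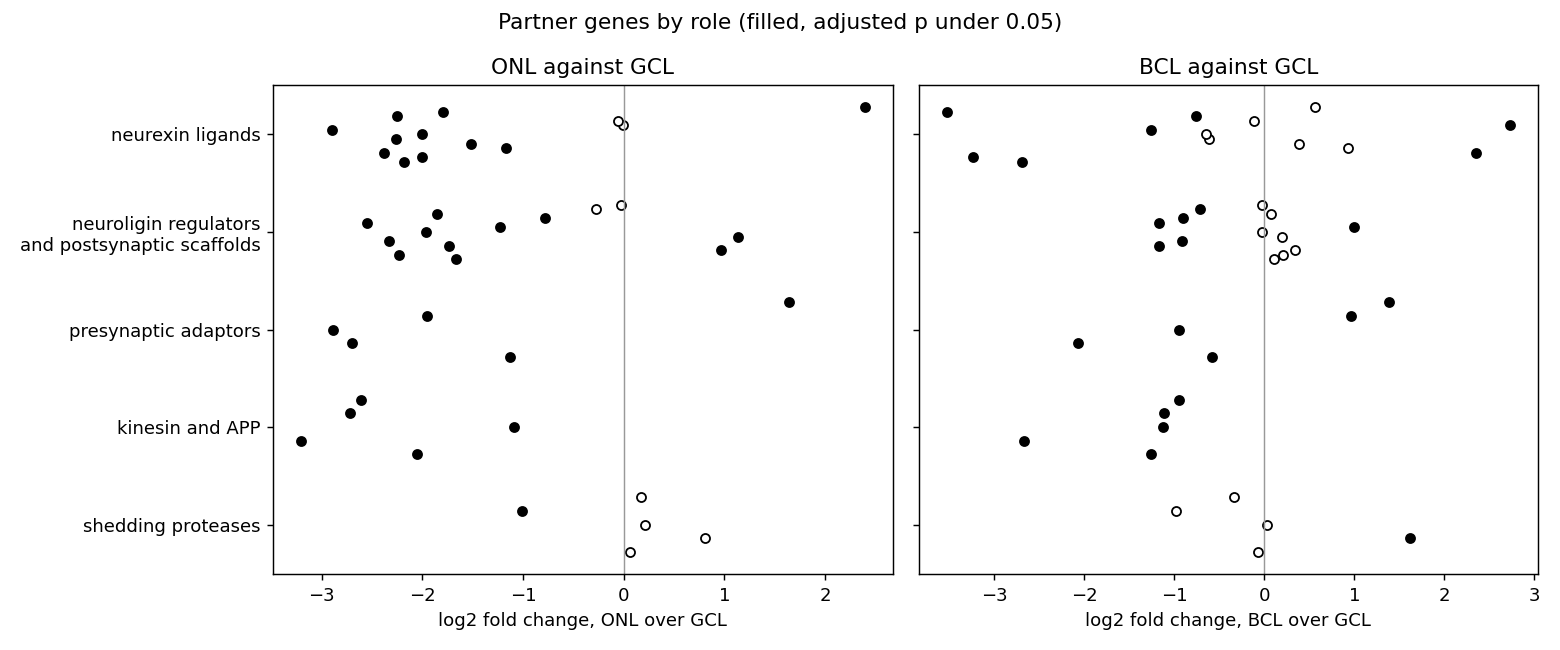
Log2 fold changes of the tested partner genes by role (rows) for ONL over GCL and BCL over GCL (x axes, edgeR estimates from 4 sections a layer; filled points have an adjusted p under 0.05; the vertical offset within a row only separates points). The 5 kinesin and amyloid precursor genes lie left of 0 in both comparisons, and most shedding proteases are open points near 0.

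In amacrine cells 35 partner genes were tested, with a median log2 fold change of -0.013 for TH+ over TH- against -0.052 for all genes. The TH+ and TH- libraries of 1 of them did not overlap, Cbln2, a secreted neurexin ligand named after its values were seen, that averaged 44.3 CPM in TH+ and 87.7 CPM in TH- cells. It had 1 to 5 UMIs in each TH+ library, 12 in all, which is close to the limit that a count of 0 allows there, and 71 UMIs over the TH- libraries. Of all genes tested, 1.35% did not overlap with TH- higher.

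The genes whose levels ran most like each member over the 12 layer libraries were named by Pearson's r on log2 CPM. These 12 points are 3 layers of 4 sections, so that r mostly repeats the layer means. Nrxn3 was followed by Ptprd (r = 0.998), a receptor phosphatase of presynaptic membranes, Foxp4 and Plxna4. Nrxn2 was followed by Fat3 (0.993), a giant cadherin, Grin2b, an NMDA receptor subunit, and Gpr153. Clstn3 was followed by Hlf (0.992), Gnao1 and Map6, and Clstn2 by Psd3 (0.983), Ahnak and Pcdh10, a protocadherin. Clstn1 was followed by Trp53bp1 (0.963), Ndfip1 and Ank2, Nlgn1 by Aatk (0.976), Fmn2 and Sema5a, Nlgn2 by Dcaf12l1 (0.980), Lgi2 and Fam43a, and Nlgn3 by Map4k4 (0.969), Ubfd1 and Susd4. Over the 10 amacrine libraries, 2 groups of 5, so that r mostly repeats the difference by which the genes were chosen, Clstn2 was followed by Stra6 (0.943), Trpc5 (0.920) and Resp18 (0.909).

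Among the members themselves, Clstn2 ran closest to Nlgn2 (r = 0.938) and Nrxn2 (0.928) over the same 12 libraries, and Clstn3 to Nlgn1 (0.926). Clstn1 and Nrxn3 had the lowest value of the 28 pairs (-0.30). These values are descriptions and carry no test.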

How the data were processed

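Light-Seq libraries of mouse retina sections were used: 12 layer libraries (ONL, BCL and GCL of 4 sections) and 10 amacrine libraries (TH+ and TH- of 5 sections), with 3 wells of 3T3 cells for levels only. The authors deposited counts of UMIs per gene, not normalized. They extracted UMIs with UMI-tools 1.1.1, aligned reads with STAR 2.7.9a to mm39, discarded reads with several alignments, assigned reads to exons with featureCounts at its default settings, which ignore strand and leave out reads that overlap several genes, and collapsed UMIs per gene. Gene lengths come from the deposited 3T3 tables. Groups followed the GEO labels and column names.

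The members and gene lists were chosen with earlier results of these data known. Levels are CPM of the column total, and genes are compared with one another only per kilobase. Genes with at least 3 UMIs by edgeR's expression filter and 10 in all were fitted in edgeR 4.0.16 (R 4.3.3) with TMM scaling and its quasi-likelihood F-test, adjusted by Benjamini-Hochberg at 0.05 over all 11324 genes tested in the layers or 6021 in the amacrine table. A called gene has an adjusted p under 0.05, and the standard error is the log2 fold change divided by the root of F. Scripts were tested on simulated data. The common biological coefficient of variation was 9.17% in the layers and 16.0% in the amacrine libraries. Intervals and limits for a count of 0 cover counting error only.

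Named were the 8 members, in each partner group the 2 genes with the smallest adjusted p in any layer comparison with all sections in one direction, and the 3 genes with the highest Pearson's r to each member; partner genes named outside this rule are marked in the text. Alternatives were DESeq2 1.42.0, its size factors, other filters, column totals (chosen after the data were seen), the section as a block, and leaving out each section or library. Libraries of a section share tissue and are paired by the design. The correlation of their deviations from the group means was 0.0116 to 0.0493 over 12 layer pairs and 0.0287 to 0.257 over 5 amacrine pairs. Gene positions are from GENCODE (GRCm39) and promoters from RefSeq (GRCm38.p6). Of the partner list as first drawn up, 1 group of genes is not reported here. A pooled layer library and the deeper run of one culture well were not used here.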

Additional observations from a re-analysis of the deposited data

Results flagged for a closer look

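In 5 of the 40 groups of libraries (8 genes in 5 populations), 1 library lay far from the others by Dixon's test, where chance flags about 1 in 20 groups. Clstn1 stood at 995 CPM (172 UMIs) in the TH- library of section 2, against 1517 to 1604 CPM in the other TH- libraries. Nrxn3 stood at 1036 CPM (179 UMIs) in the same library, against 730 to 784 CPM. That section also had the lowest summed rod markers of the TH- libraries, 7429 CPM, and of the TH+ libraries, 12968 CPM, and the part of rod RNA in these values was not tested. Nrxn2 stood at 147 CPM (118 UMIs) in the ONL library of section 1, against 54.8 to 67.7 CPM. Summed ganglion cell markers were 471 CPM in that library and 438 CPM in the ONL library of section 4, where Nrxn2 stood at 67.7 CPM. Summed amacrine (434 CPM) and astrocyte markers (33.7 CPM) were also highest of the ONL in section 1. The part of these cell types in the Nrxn2 value was not tested. Nrxn2 stood at 501 CPM (326 UMIs) in the GCL of section 3, against 619 to 627 CPM. Nrxn3 stood at 355 CPM (237 UMIs) in the GCL of section 2, against 309 to 310 CPM.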

How the results depend on the processing

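Over the 3 layer comparisons of the 8 genes, 132 of the values under the 6 alternatives that keep all libraries kept their direction and side of the threshold, 5 lost the call, 5 gained one and 2 turned direction. The values that turned were Clstn1 between ONL and BCL on column totals (-0.038) and Clstn3 between BCL and GCL with no filter (-0.075, with 0.04 as reported). Clstn1 between ONL and BCL lost its call with DESeq2 (adjusted p = 0.214), its size factors (0.169), no filter (0.0605) and edgeR's default filter (0.0503). Nlgn3 between ONL and BCL lost its call with no filter (0.0632). Clstn2 between ONL and BCL gained one with DESeq2's size factors (0.0400), no filter (0.0236), column totals (0.0122) and the section block (0.0264), and Nlgn2 between ONL and BCL on column totals (0.0135). The block changed no other call of a member.

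Leaving out a section or library in turn, the number of members called was 4 to 7 between ONL and BCL, 8 throughout between ONL and GCL and 6 throughout between BCL and GCL. Clstn1 between ONL and BCL lost its call in 8 of 16 such fits and Nlgn3 in 7 of 16, while Clstn2 gained one in 4 of 16. The adjusted p of Clstn1 was 0.216 without section 1, 0.414 without section 2, 0.0558 without GCL library 2, 0.156, 0.0922 and 0.0807 without BCL libraries 1, 2 and 4, and 0.0672 and 0.240 without ONL libraries 1 and 2. That of Nlgn3 was 0.536, 0.0955 and 0.0563 without sections 2, 3 and 4, 0.436 and 0.0733 without BCL libraries 2 and 4, and 0.0893 and 0.134 without ONL libraries 2 and 3. That of Clstn2 was 0.00257 without section 1, 0.0238 and 0.0207 without BCL libraries 2 and 3, and 0.000165 without ONL library 1. The difference of Clstn3 between BCL and GCL ranged from -0.044 to 0.088 and that of Nlgn2 between ONL and BCL from -0.13 to 0.031; neither was called. For TH+ against TH-, 50 genes were called, 148 with the section as a replicate block, and 29 to 91 leaving libraries out. The count was 29 without section 3 or its TH+ library, 31 without section 5 and 91 without the TH+ library of section 2. Of the 80 mean levels recomputed with TMM or without mitochondrially encoded genes, 9 moved by more than 1 s.d. TH+ libraries limit the amacrine values most, since a count of 0 there allows up to 99.0 CPM.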
